A study of Homo sapiens with 24 samples.

Results

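Interleukins and colony stimulating factors are secreted proteins through which leukocytes act on each other, and Hodgkin lymphoma cells are known for making many of them. The 9 genes described here were taken from a named list and encode EBI3, IL6, IL7, IL10, IL12A, IL13, IL15, CSF1 and CSF2. Each was measured through the transcript clusters (sets of probes for one transcript locus) that the array's annotation pairs with that symbol and no other. Of the 9 genes, 8 had such a cluster, 1 each, among 19460 clusters with a single symbol and 33297 clusters in all. CSF2 had 0 and was not analysed here. The 8 genes lie on chromosomes 19 (EBI3), 7 (IL6), 8 (IL7), 1 (IL10 and CSF1), 3 (IL12A), 5 (IL13) and 4 (IL15).

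The cells were L1236, a Hodgkin lymphoma line of B cell origin grown in culture, measured on 24 Affymetrix Human Gene 1.0 ST arrays. In experiment 1, the p50/RelA knockdown (KD) combined NFKB1 siRNA at 1 µM for 3 days with RELA siRNA at 500 nM for 2 days and was set against control 1, which received non-targeting siRNA. In experiment 2, the p52/RelB KD combined RELB siRNA at 1 µM for 3 days with NFKB2 siRNA at 500 nM for 2 days and was set against its own control 2. Cells were harvested 1 day after siRNA treatment ended. Every arm held 6 arrays, since each of 3 replicates was treated with either of 2 siRNA sequences, and all results concern this single line. The sources used here do not say whether samples of a replicate came from separate cultures, so p-values measure the spread between these arrays.

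NF-κB is a family of dimeric transcription factors built of p50, p52, RelA, RelB and c-Rel. The canonical pathway releases dimers such as p50-RelA from inhibitor proteins in the cytoplasm, and the non-canonical pathway processes p100 to p52, the partner of RelB. Genes for several interleukins, IL6 among them, are textbook targets of the family. The comparisons asked how much mRNA of each factor remained when either pair of subunits was depleted.

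The siRNAs that defined the KD arms are shown here because the results are also given by sequence. They are the study's designed sequences, 5′ to 3′, 2 for each target, and all letters are in lower case. The sources used here do not say which of the 2 was labelled sequence 1.
NFKB1: ccaaaguauaaagauauua
NFKB1: ggcucauguuuacagcuuu
RELA: cuuccaaguuccuauagaa
RELA: ggauugaggagaaacguaa
NFKB2: ucauugagcagauagucua
NFKB2: cugucaagaucuguaacua
RELB: guaggauucggaaaagauu
RELB: uggagaucaucgacgagua

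The targeted mRNAs were lowered unevenly. The study also showed depletion of the subunit proteins by western blot, and these arrays measure mRNA only. NFKB1, which encodes p105 and p50, stood at 26.5% of control 1 in the p50/RelA KD, and RELA at 38.1% (limma adjusted p = 3.92e-06 for both). NFKB2, which encodes p100 and p52, stood at 39.4% of control 2 in the p52/RelB KD (adjusted p = 4.75e-09), but RELB only at 82.0% (adjusted p = 0.00221), a call lost without replicate 2 (adjusted p = 0.0774) and with sequence 2 alone (adjusted p = 0.385). REL, the gene of c-Rel, which no siRNA was aimed at, stood at 67.5% in the p52/RelB KD (adjusted p = 0.000308). Subunit genes of the other pair moved less, with NFKB2 at 87.8% of control 1 in the p50/RelA KD (adjusted p = 0.0457) and NFKB1 at 111% of control 2 in the p52/RelB KD (adjusted p = 0.0374).

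Promoter windows are shown because NF-κB dimers recognise κB sites in promoters and enhancers. Windows of 300 bases, 250 before and 50 after a RefSeq transcription start (GRCh38.p14), were given for 6 of the 9 genes, 9 windows in all. They were searched on both strands for the κB consensus, the 10-base motif named for NF-κB. It was found in 2 of the 9 windows, 1 in IL6 and 1 in IL12A, and in 5.91% of all 35116 windows of that length. Capitals mark the match, which lies 73 to 64 bases before the start in IL6 and 44 to 35 bases before it in IL12A. The IL6 match reads as the motif on the printed strand. The IL12A match is on the opposite strand, so its capitals are the reverse complement of the letters that fit the motif. The EBI3 window is shown beside them because EBI3 had the largest fall of the tested genes in p50/RelA KD. It holds no match, which says only that these letters are not in this window.
IL6, chr7:22726950-22727249, plus strand: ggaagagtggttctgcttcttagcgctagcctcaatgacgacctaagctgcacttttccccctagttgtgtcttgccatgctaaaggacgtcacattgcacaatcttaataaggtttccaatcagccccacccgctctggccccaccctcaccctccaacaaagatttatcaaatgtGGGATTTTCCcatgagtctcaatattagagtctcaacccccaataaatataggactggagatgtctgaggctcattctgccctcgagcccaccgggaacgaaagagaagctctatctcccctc
IL12A, chr3:159988585-159988884, plus strand: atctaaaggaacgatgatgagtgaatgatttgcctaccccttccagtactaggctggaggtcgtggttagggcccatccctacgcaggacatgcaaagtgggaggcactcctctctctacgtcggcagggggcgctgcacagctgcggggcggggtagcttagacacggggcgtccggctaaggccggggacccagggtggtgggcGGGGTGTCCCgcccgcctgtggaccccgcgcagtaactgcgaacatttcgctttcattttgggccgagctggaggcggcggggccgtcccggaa
EBI3, chr19:4229273-4229572, plus strand: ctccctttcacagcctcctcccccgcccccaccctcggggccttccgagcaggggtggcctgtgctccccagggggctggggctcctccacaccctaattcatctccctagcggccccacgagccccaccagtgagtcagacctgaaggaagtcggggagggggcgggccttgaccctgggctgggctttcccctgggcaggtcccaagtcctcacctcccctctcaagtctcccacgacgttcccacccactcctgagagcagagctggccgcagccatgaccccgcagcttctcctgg
A match is a description of letters, and binding was not measured on these arrays.

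The values are log2 expression values from RMA, so a difference of 1 is a doubling. A cluster was tested where it lay at 6 or more on more than 6 of the 12 arrays of an experiment. EBI3, IL6, IL7, IL12A, IL13 and CSF1 did so on 12 of 12 arrays in both experiments. IL10 did so on 12 of 12 arrays in experiment 2 but on 0 of 12 in experiment 1. IL15 reached 6 on 4 of 12 arrays in experiment 2 and on 0 of 12 in experiment 1, and was not tested in either. The 2 experiments appear to have been normalized apart (array medians of 6.94 to 6.99 and 7.39 to 7.51), so levels were not compared across them, nor between different clusters. The p52/RelB KD array of sequence 2 in replicate 3 stood apart, with the highest median (7.51) and the lowest mean correlation with its arm (0.986, where the others reached up to 0.997). Among the arrays of experiment 1, the lowest mean correlation with the own arm (0.993) belonged to control 1, sequence 2 of replicate 2, which was also the highest control 1 array for IL6, IL7 and IL13. Without it, each of the 6 tested genes kept its call or lack of one in p50/RelA KD, with adjusted p of 0.00191 for IL6, 0.0093 for IL7 and 0.0115 for IL13. Scan batches were the replicates in experiment 1, while in experiment 2 replicate 3 was scanned apart from replicates 1 and 2, so that differences within a replicate are also within a batch.

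After p50/RelA KD, EBI3, IL6 and IL13 fell and IL7 rose. After p52/RelB KD, EBI3 and IL12A fell and IL7 and CSF1 rose. The called genes stood between 71.6% and 129% of their controls. A gene was called where limma's Benjamini-Hochberg adjusted p over all clusters was below 0.05 and the difference at least 10%. Of the 6 genes tested in p50/RelA KD, 3 were called lower, where 0.825% of all 14672 clusters were, and 1 was called higher, where 0.245% were. Of the 7 tested in p52/RelB KD, 2 were called lower and 2 higher, beside 5.75% and 3.93% of all 16101 clusters. The median log2 difference of the tested genes was -0.27 in p50/RelA KD and 0.05 in p52/RelB KD, beside 0.00 and 0.02 over all clusters. The KD and control arrays did not overlap for 2 of the 6 genes in p50/RelA KD (1.11% of all clusters) and for 1 of the 7 in p52/RelB KD (5.27%). These genes and the lists below were chosen with earlier results of these data known, so such shares are a description and no test. A lower value per cell and fewer cells making the transcript cannot be told apart in such bulk RNA.

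**Figure D1:**
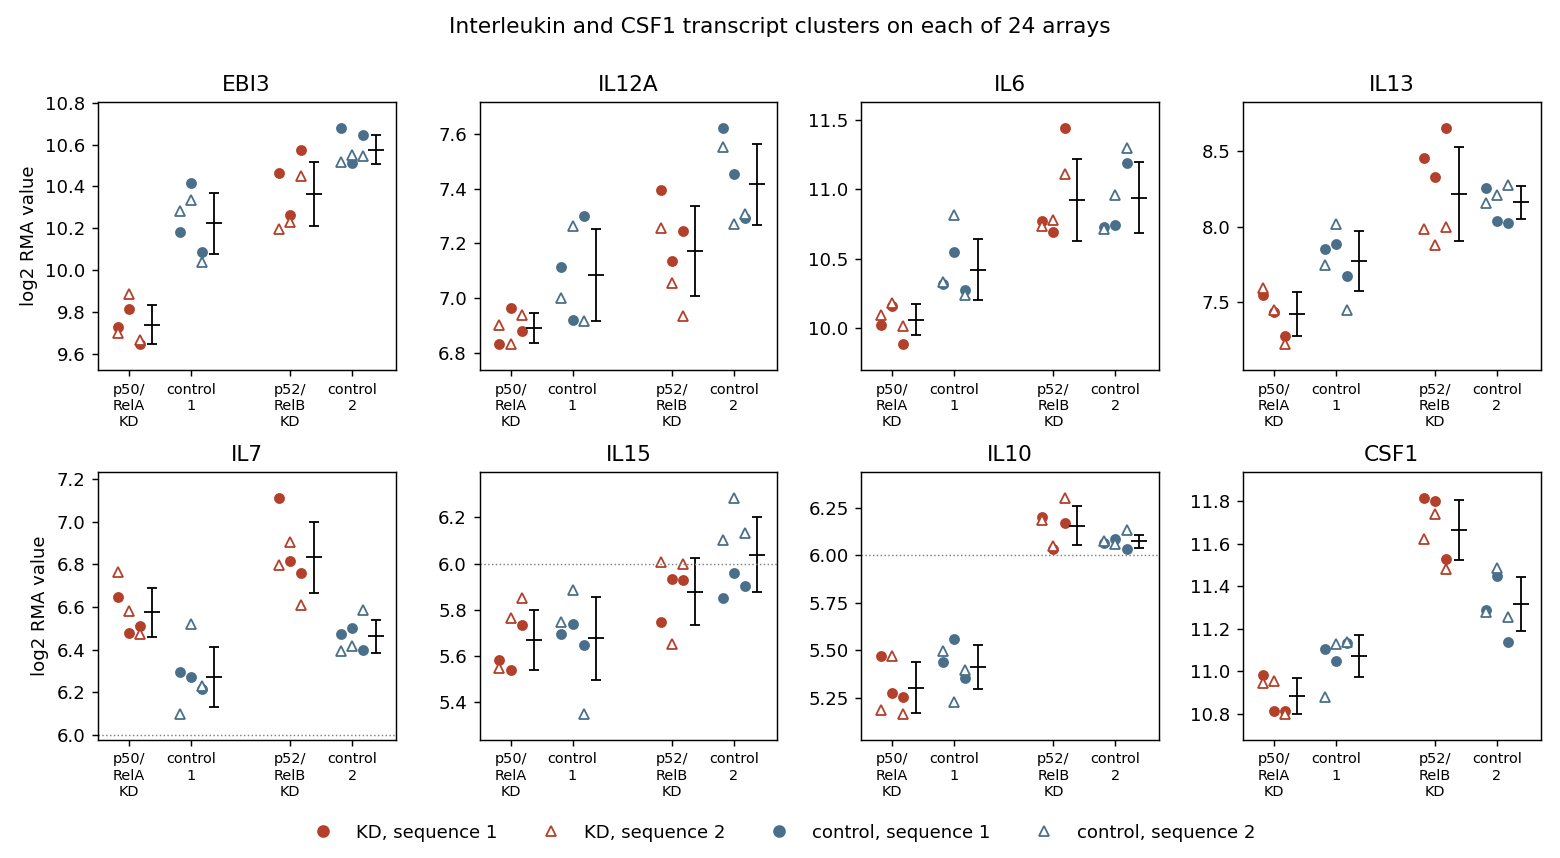
Log2 RMA value of the 8 clusters (vertical axis, one scale per gene) on each array, with KD arms left of their controls. Circles mark siRNA sequence 1 and triangles sequence 2, with replicates 1 to 3 side by side within an arm, and a black bar at right for each arm's mean ± SD (n = 6); the dotted line is the limit of 6. EBI3 in p50/RelA KD lies at 9.65 to 9.89, below all control 1 arrays, whereas IL10 and IL15 stay below 6 in experiment 1.

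EBI3 encodes a chain that pairs with p28 (IL27) to form IL-27 and with p35 (IL12A) to form IL-35. In experiment 1 its log2 value was 9.65 at the lowest, 9.72 at the median and 9.89 at the highest in p50/RelA KD, against 10.04, 10.23 and 10.41 in control 1. Every KD array lay below every control array. EBI3 fell by 0.48 ± 0.04 (log2 difference with its SE, 6 arrays per arm), to 71.6% of control 1 (limma adjusted p = 2.13e-05). The KD minus control difference was -0.52, -0.52 and -0.41 in replicates 1, 2 and 3, and it was -0.49 with sequence 1 and -0.47 with sequence 2. It ranked at 9 of the 14672 clusters, counted from the most negative difference.

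In experiment 2 EBI3 was 10.20, 10.36 and 10.57 at the lowest, median and highest in p52/RelB KD, against 10.51, 10.55 and 10.68 in control 2. The arms overlapped, since the KD array of sequence 1 in replicate 3 reached 10.57. EBI3 fell by 0.21 ± 0.06, to 86.4% of control 2 (adjusted p = 0.0356). The difference was -0.27, -0.29 and -0.08 in replicates 1, 2 and 3, and it was -0.14 with sequence 1 and -0.28 with sequence 2. Neither sequence alone gave a call. The call was lost without replicate 1 (-0.18, adjusted p = 0.193) or replicate 2 (-0.17, adjusted p = 0.338) and without the replicate block (adjusted p = 0.0834). It was also lost without any single one of 8 arrays (control sequence 1 of replicates 1, 2 and 3, control sequence 2 of replicates 1 and 2, KD sequence 2 of replicates 1 and 2, KD sequence 1 of replicate 2), with adjusted p of 0.0580 to 0.0896.

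IL12A encodes p35, the chain that IL-12 and IL-35 share. In p50/RelA KD it was 6.83, 6.89 and 6.96 at the lowest, median and highest, against 6.92, 7.06 and 7.30 in control 1. The arms met at the lower edge of the controls. The difference of -0.19 ± 0.07 did not pass (adjusted p = 0.281, 95% interval -0.34 to -0.05), although it was -0.19, -0.19 and -0.20 in the 3 replicates. Its 6 arrays of p52/RelB KD ranged from 6.94 to a highest value of 7.396 with a median of 7.19, against 7.27 to 7.62 with a median of 7.38 in control 2. IL12A fell by 0.24 ± 0.06, to 84.4% of control 2 (adjusted p = 0.0154), with differences of -0.26, -0.27 and -0.21 in replicates 1, 2 and 3. The difference was -0.16 with sequence 1 and -0.33 with sequence 2, and neither sequence alone gave a call. The IL12A call was lost without replicate 1 (adjusted p = 0.179) or 2 (adjusted p = 0.163), with the scan batch in place of the replicate as block (adjusted p = 0.0580), and with no block (adjusted p = 0.107).

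The partner chains of EBI3 and IL12A, and IL23A of the related IL-23, did not pass where they were tested. IL27 differed by -0.06 ± 0.05 after p50/RelA KD (adjusted p = 0.809) and by 0.07 ± 0.08 after p52/RelB KD (adjusted p = 0.652). IL23A, the chain particular to IL-23, had -0.09 ± 0.04 and -0.04 ± 0.05 (adjusted p = 0.53 and 0.677). IL12B, the p40 chain of IL-12 and IL-23, was tested only in p52/RelB KD, at -0.05 ± 0.09 (adjusted p = 0.778).

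IL6 encodes interleukin-6, which signals through gp130. The p50/RelA KD arrays had 9.88, 10.06 and 10.18 at the lowest, median and highest, against 10.24, 10.33 and 10.81 in control 1. The arms did not overlap, and the highest control was sequence 2 in replicate 2. IL6 fell by 0.36 ± 0.05, to 77.8% of control 1 (adjusted p = 0.00615), with differences of -0.27, -0.51 and -0.31 in replicates 1, 2 and 3. The call was lost without replicate 1 (adjusted p = 0.0805) or 3 (adjusted p = 0.0676) and without the block (adjusted p = 0.101). It was also lost with sequence 1 or sequence 2 alone (adjusted p = 0.0531 and 0.941) and by the methods' t-test on deposited values (adjusted p = 0.264). The IL6 call was kept without each single array in turn (adjusted p = 0.00191 to 0.0258) and with sequences averaged (adjusted p = 0.0393).

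In experiment 2 IL6 was 10.69, 10.78 and 11.44 in p52/RelB KD, against 10.71, 10.85 and 11.30 in control 2. The arms covered nearly the same range. The 2 KD arrays of replicate 3, at 11.44 and 11.11, and its 2 control arrays, at 11.19 and 11.30, lay above every array of replicates 1 and 2. Replicate 3 was also a scan batch of its own, and the part of that batch was not tested. The KD minus control difference was -0.02 ± 0.06 (adjusted p = 0.887, 95% interval -0.15 to 0.11), and 0.03, -0.11 and 0.03 in replicates 1, 2 and 3. The 2 KD effects on IL6 differed by 0.34 ± 0.08 (p52/RelB KD effect minus p50/RelA KD effect, adjusted p = 0.0195). That call was lost without any 1 replicate (adjusted p = 0.0697 to 0.188) and without the block (adjusted p = 0.44).

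**Figure D2:**
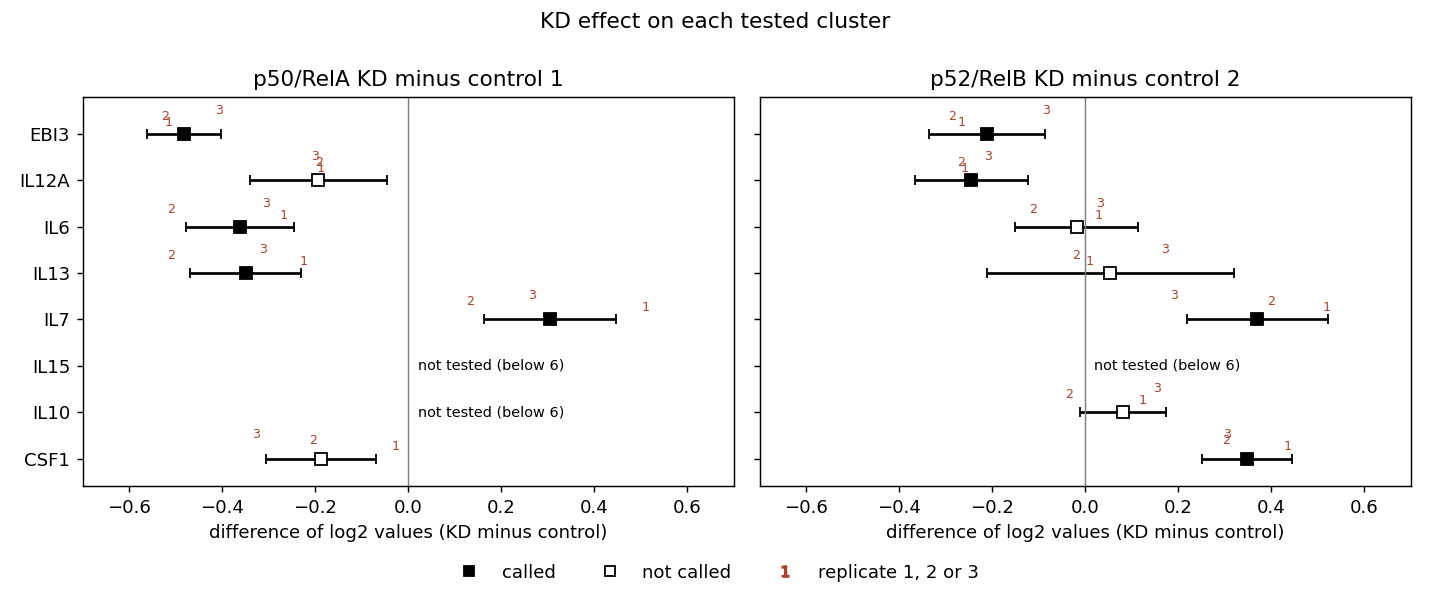
Difference of log2 values, KD minus control (horizontal axis), for each tested cluster in p50/RelA KD (left) and p52/RelB KD (right). Squares are the limma estimate with its 95% interval, filled where called, and the small digits mark the difference within replicate 1, 2 or 3. CSF1 lies at -0.19 (not called) on the left and 0.35 (called) on the right, and IL7 lies right of 0 in every replicate of both.

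IL13 encodes interleukin-13, a growth factor that Hodgkin cells make for themselves. In p50/RelA KD it was 7.22, 7.44 and 7.60 at the lowest, median and highest, against 7.45, 7.80 and 8.02 in control 1. One control array, sequence 2 in replicate 3, lay within the KD range. IL13 fell by 0.35 ± 0.05, to 78.5% of control 1 (adjusted p = 0.00849), with differences of -0.23, -0.51 and -0.31 in replicates 1, 2 and 3. Both sequences gave -0.35. The call was kept without each single array in turn (adjusted p = 0.00366 to 0.0306). It was lost without any 1 replicate (adjusted p = 0.0643 to 0.128) and without the block (adjusted p = 0.11). It was also lost with sequences averaged (adjusted p = 0.0545), with sequence 2 alone, and by the methods' t-test on deposited values (adjusted p = 0.268).

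The 2 siRNA sequences of the p52/RelB KD parted for IL13. The KD arrays of sequence 1 were at 8.46, 8.33 and 8.65 in replicates 1, 2 and 3, and those of sequence 2 at 7.98, 7.88 and 7.99. The 6 control 2 arrays lay between 8.02 and 8.28, so that all 3 arrays of sequence 1 were above every control and all 3 of sequence 2 below every control. Against the mean of all control 2 arrays, sequence 1 stood at 0.32 and sequence 2 at -0.21. Pooled, the KD effect was 0.05 ± 0.12 (adjusted p = 0.828). Within the KD arm, sequence 1 minus sequence 2 was 0.53 ± 0.08 (unadjusted p = 6.91e-05, adjusted p = 0.38), which ranked at 2 of 16101 clusters by p but did not pass, as no cluster did. In the control arm the same contrast was -0.11 ± 0.08 (adjusted p = 1). The opposite placing of both sequences around all controls was found for 3 clusters of 16101 in experiment 2 (0.0186%) and for 0 of 14672 in experiment 1. The 3 were IL13, BIN1 and YME1L1, named after their values were seen. This criterion was set after the IL13 values were seen, so the count is a description and no test of IL13. Tested against control sequence 1 alone, IL13 was higher with KD sequence 1 (0.37, adjusted p = 0.0251), while sequence 2 against control sequence 2 gave -0.26 (adjusted p = 0.371). Control and KD sequences of the same number are different oligonucleotides, so this pairing is arbitrary, with 3 arrays on each side. NFKB2 stood at 38.8% of control 2 with sequence 1 and 40.1% with sequence 2, RELB at 79.6% and 84.4%, and REL at 72.6% and 62.8%. The part of these levels in the IL13 values was not tested. The 2 KD effects on IL13 differed by 0.40 ± 0.14 without passing (adjusted p = 0.12).

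**Figure D3:**
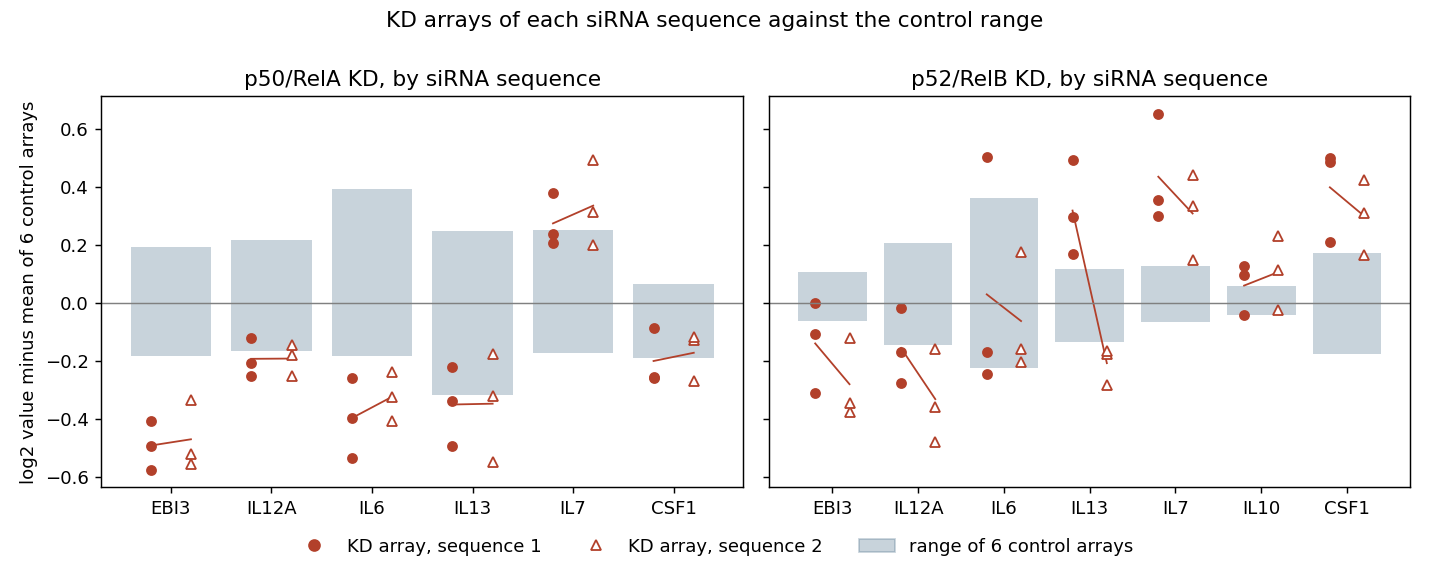
Log2 value of each KD array minus the mean of the 6 control arrays of its experiment (vertical axis), for each tested cluster, where circles mark siRNA sequence 1 and triangles sequence 2, with lines between their means and a bar for the range of the 6 controls. In p52/RelB KD, IL13 stands at 0.32 with sequence 1 and -0.21 with sequence 2, outside the control range on both sides.

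For the other tested genes the 2 sequences of a KD gave values closer together. After p50/RelA KD the difference of sequence 1 minus sequence 2 lay between -0.07 (IL6) and -0.0009 (IL12A), and in p52/RelB KD, leaving out IL13, between -0.05 (IL10) and 0.18 (IL12A). None passed, and over all clusters 514 in p50/RelA KD and 1536 in p52/RelB KD had an unadjusted limma p below 0.05, with 0 called in either.

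IL7 encodes interleukin-7, a survival factor for lymphocytes, and was the tested gene that rose in both experiments. Its control values lay close above the limit of 6, at 6.10 to 6.52 in control 1 and 6.39 to 6.59 in control 2. In p50/RelA KD IL7 was 6.47, 6.55 and 6.77 at the lowest, median and highest, against 6.10, 6.25 and 6.52 in control 1. The arms overlapped through a single control array, sequence 2 in replicate 2, at 6.52. IL7 rose by 0.30 ± 0.07, to 123% of control 1 (adjusted p = 0.0484), with differences of 0.51, 0.13 and 0.27 in replicates 1, 2 and 3. This call sat at the threshold and was lost without any 1 replicate (adjusted p = 0.0568 to 0.433). It was also lost without any 1 of 10 arrays (adjusted p = 0.0633 to 0.125), the exceptions being control sequence 2 and KD sequence 1 of replicate 2. Without the block the adjusted p was 0.0682, and without the filter on low values 0.0796.

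IL7 in p52/RelB KD was 6.61, 6.81 and 7.11, against 6.39, 6.45 and 6.59 in control 2. All KD arrays lay above all control arrays. IL7 rose by 0.37 ± 0.07, to 129% of control 2 (adjusted p = 0.00511), with differences of 0.52, 0.40 and 0.19 in replicates 1, 2 and 3, and of 0.43 and 0.31 with sequences 1 and 2. The call was lost without replicate 1 (adjusted p = 0.0793) or 2 (adjusted p = 0.111) and with sequence 2 alone (adjusted p = 0.475). It was kept without each single array (adjusted p = 0.000509 to 0.0177). The 2 KD effects on IL7 differed by 0.07 ± 0.10 (adjusted p = 0.818).

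CSF1 encodes macrophage colony stimulating factor, which sustains macrophages through the receptor CSF1R. Its values in p50/RelA KD were 10.80, 10.88 and 10.98 at the lowest, median and highest, against 10.88, 11.11 and 11.14 in control 1. The arms overlapped through the control array of sequence 2 in replicate 1, at 10.88, where the other 5 controls lay at 11.05 to 11.14. The difference of -0.19 ± 0.05 did not pass (adjusted p = 0.155), with -0.03, -0.21 and -0.33 in replicates 1, 2 and 3. Without that control array, singled out after its value was seen, it was -0.23 and passed (adjusted p = 0.035). Leaving out any other single array gave no call (adjusted p up to 0.35). Without replicate 1 as a whole, which holds that control array, the difference was -0.27 and did not pass (adjusted p = 0.137).

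CSF1 in p52/RelB KD was 11.48, 11.68 and 11.82, against 11.14, 11.28 and 11.49 in control 2. The lowest KD array, sequence 2 in replicate 3, lay just below the highest control. CSF1 rose by 0.35 ± 0.04, to 127% of control 2 (adjusted p = 0.000383), with differences of 0.44, 0.30 and 0.30 in replicates 1, 2 and 3, and of 0.40 and 0.30 with sequences 1 and 2. The call was kept without each replicate (adjusted p = 0.000917 to 0.0195) and without each array (adjusted p = 7.68e-05 to 0.00196). It was lost with sequence 2 alone (adjusted p = 0.358).

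The test of the difference between the KD effects, p52/RelB minus p50/RelA, called 3 of 6 genes higher (1.9% of 14647 clusters) and 0 lower (2.45%). For CSF1 the difference was 0.54 ± 0.07 (adjusted p = 9.48e-05), and it was called without each replicate in turn (adjusted p = 0.000521 to 0.0121) and without the block (adjusted p = 0.00131). For EBI3 it was 0.27 ± 0.07 (adjusted p = 0.0233), and the call was lost without any 1 replicate (adjusted p = 0.0992 to 0.153) and without the block (adjusted p = 0.181). For IL6 it was the 0.34 given with that gene, and for IL12A it was -0.05 ± 0.09 (adjusted p = 0.853).

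IL10 encodes an interleukin that restrains macrophages and T cells. In experiment 1 it lay at 5.16, 5.26 and 5.47 at the lowest, median and highest in p50/RelA KD, against 5.23, 5.42 and 5.56 in control 1. With p52/RelB KD it was 6.03, 6.18 and 6.30, against 6.03, 6.07 and 6.13 in control 2. All these values are near the limit of 6 and the arms overlapped in both experiments. The difference in p52/RelB KD was 0.08 ± 0.04 (adjusted p = 0.282), and 0.12, -0.03 and 0.15 in replicates 1, 2 and 3.

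IL15 encodes an interleukin that sustains NK cells and memory T cells. It lay at 5.54, 5.66 and 5.85 in p50/RelA KD, against 5.35, 5.72 and 5.89 in control 1. It lay at 5.65, 5.93 and 6.01 in p52/RelB KD, against 5.85, 6.03 and 6.29 in control 2. The arms overlapped in both. The untested difference was -0.01 in p50/RelA KD and -0.16 in p52/RelB KD, with -0.10, -0.33 and -0.05 in replicates 1, 2 and 3 of p52/RelB KD.

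EBI3 and IL13 were then compared in pattern with the other clusters, as Pearson's r of values centred within each replicate over the 12 arrays of each experiment. These points share the KD contrast itself and any difference between the siRNA sequences, so r is a description. The members most like EBI3, by the lower of the r in experiments 1 and 2, were IL12A (0.61 and 0.84), IL6 (0.90 and 0.30) and IL13 (0.89 and 0.29). IL7 ran opposite to EBI3 in both experiments (-0.85 and -0.63). The members most like IL13 were IL6 (0.94 and 0.60), CSF1 (0.79 and 0.32) and IL12A (0.80 and 0.30). Of 14646 clusters, GNA15 (0.91 and 0.89), NUAK2 (0.88 and 0.91) and LTA (0.89 and 0.86) were most like EBI3, and CAMK4 (0.85 and 0.98), LHX9 (0.86 and 0.84) and CD274 (0.81 and 0.82), the gene of PD-L1, were most like IL13. GNA15, NUAK2 and LTA were called lower in both KDs. CAMK4, LHX9 and CD274 were called in neither, with p52/RelB KD differences of 0.02, 0.05 and 0.04 (limma adjusted p = 0.829, 0.607 and 0.82). Within that KD arm, their sequence 1 minus sequence 2 was 0.14, 0.16 and 0.27 (limma adjusted p = 0.506 for each).

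Receptor chains of these factors were also measured, since a cell that carries them can respond to its own product. Of 18 such genes, 13 were tested in p50/RelA KD, with 1 lower and 0 higher, and 14 in p52/RelB KD, with 2 lower and 3 higher. Over all clusters 0.825% were lower and 0.245% higher in p50/RelA KD, and 5.75% lower and 3.93% higher in p52/RelB KD. The median of the receptor chains' differences was -0.02 and 0.02, beside 0.00 and 0.02 over all clusters. CSF2RB, the shared beta chain of the receptors for GM-CSF, IL-3 and IL-5, was lower in both KDs. It averaged 9.12 ± 0.07 in p50/RelA KD and 9.39 ± 0.06 in control 1 (SD, n = 6 each), a fall by 0.28 ± 0.04 (SE, adjusted p = 0.00288). That call was lost without any 1 replicate (adjusted p = 0.0621 to 0.0732), with sequences averaged (adjusted p = 0.0519) and with sequence 1 or sequence 2 alone (adjusted p = 0.169 and 0.692). In experiment 2 it averaged 9.22 ± 0.08 in p52/RelB KD and 9.67 ± 0.04 in control 2, a fall by 0.45 ± 0.04 (adjusted p = 1.93e-05).

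The other receptor chains that moved did so in p52/RelB KD. IL27RA, the receptor chain particular to IL-27, rose by 0.28 ± 0.04 (adjusted p = 0.000909). IL4R, which forms the IL-13 receptor together with IL13RA1, rose by 0.24 ± 0.04 (adjusted p = 0.00105). IL12RB1, a chain of the IL-12 and IL-23 receptors, rose by 0.15 ± 0.03 (adjusted p = 0.0109). IL2RG, the common gamma chain of the IL-7 and IL-15 receptors, fell by 0.19 ± 0.04 (adjusted p = 0.00872). The IL12RB1 and IL2RG calls were lost without replicate 1 (adjusted p = 0.21 and 0.107) or 2 (adjusted p = 0.111 and 0.0834), and the IL27RA call without replicate 1 (adjusted p = 0.0502). With sequences averaged the IL12RB1 and IL2RG calls were lost too (adjusted p = 0.166 and 0.0961), and IL2RG also without the block (adjusted p = 0.155) and by the methods' t-test on deposited values (adjusted p = 0.215). With sequence 2 alone, none of the 5 receptor calls of p52/RelB KD was kept (adjusted p = 0.192 to 0.596), and with sequence 1 alone IL12RB1 was lost (adjusted p = 0.101). CSF1R, the receptor of CSF1, had differences of 0.04 ± 0.05 in p50/RelA KD and 0.00 ± 0.05 in p52/RelB KD (adjusted p = 0.865 and 0.968). IL7R lay below the limit, at means of 4.49 in p50/RelA KD and 4.58 in control 1, and of 5.04 in p52/RelB KD and 4.92 in control 2.

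**Figure D4:**
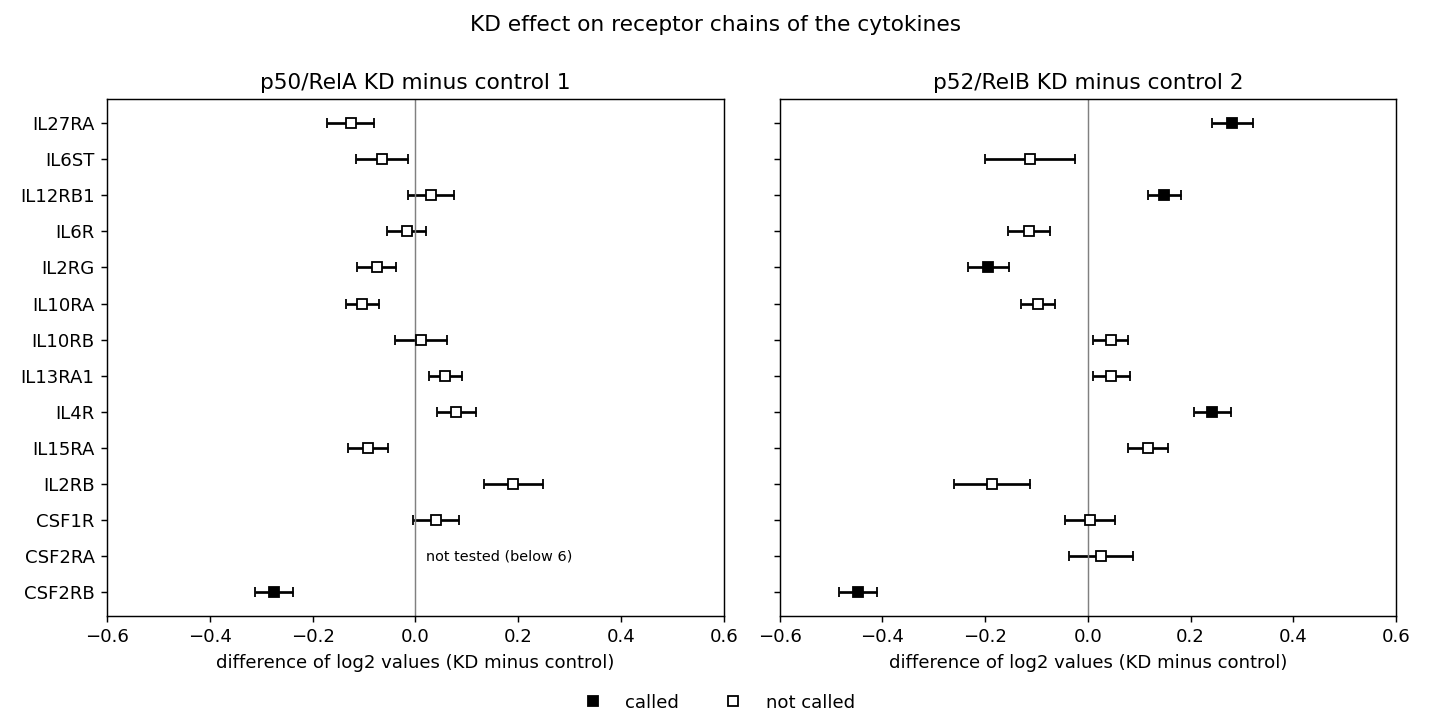
Difference of log2 values, KD minus control (horizontal axis), for the receptor chains tested in at least 1 experiment, with p50/RelA KD on the left and p52/RelB KD on the right. Squares are limma estimates with their SE, filled where called. CSF2RB lies at -0.28 and -0.45, and IL27RA, IL4R and IL12RB1 are called higher on the right.

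Other interleukins and haematopoietic cytokines were measured as well. Of 47 such genes listed, 43 had a cluster. After p50/RelA KD 22 were tested with 0 called, and in p52/RelB KD 26 were tested with 1 lower and 0 higher, beside 0.825% of all clusters lower and 0.245% higher in p50/RelA KD and 5.75% and 3.93% in p52/RelB KD. The counts thus lie near the share over all clusters. IL31, a cytokine of T cells, fell by 0.20 ± 0.04 after p52/RelB KD (adjusted p = 0.0127). After p50/RelA KD its difference of -0.24 ± 0.06 did not pass (adjusted p = 0.0562). The call of IL31 in p52/RelB KD was lost without replicate 2 (adjusted p = 0.221), without the block (adjusted p = 0.147), by the methods' t-test on deposited values (Benjamini-Hochberg adjusted p = 0.205), with sequences averaged (adjusted p = 0.132) and with sequence 1 or sequence 2 alone (adjusted p = 0.0847 and 0.522).

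Marker lists bore on the label of the cells. Of 11 Hodgkin and B lineage markers with a cluster, 10 were tested in each experiment, PAX5 and TNFRSF8 (CD30) among them, and MS4A1 (CD20) lay at 4.38 to 4.88 on average in all 4 groups. In p50/RelA KD 3 of the 10 were lower (CD40, CCL17 and CCL22), and in p52/RelB KD 3 were lower (CD40, CD80 and CCL22) and 1 was higher (PAX5), where 0.825% of all clusters were lower in p50/RelA KD and 5.75% lower and 3.93% higher in p52/RelB KD. The mean log2 value per array over markers of T and NK cells ranged from 5.97 to 6.17 in p50/RelA KD and 5.95 to 6.17 in control 1, and from 6.31 to 6.73 in p52/RelB KD and 6.30 to 6.39 in control 2. For myeloid markers it was 5.81 to 5.87 in p50/RelA KD and 5.71 to 5.96 in control 1, and 6.27 to 6.67 in p52/RelB KD and 6.29 to 6.42 in control 2. CD4, one of the T and NK markers, lay well above the limit of 6, at means of 9.70 in p50/RelA KD and 9.73 in control 1. In experiment 2 CD4 averaged 8.23 in p52/RelB KD and 8.37 in control 2. None of the tested T, NK and myeloid markers was called by limma. For stromal markers the range was 6.92 to 7.05 in p50/RelA KD and 6.85 to 7.05 in control 1. In experiment 2 it was 7.08 to 7.15 in p52/RelB KD and 7.02 to 7.18 in control 2. Of the stromal markers, PECAM1 alone was called, higher in p52/RelB KD through 1 of its 2 clusters. That cluster lay well above the limit of 6, at means of 11.95 to 12.44 over the 4 groups, and the other at 5.585 to 6.51. COL1A1 had means of 7.97 to 8.35. The upper ends of the T, NK and myeloid ranges in p52/RelB KD belong to the array of sequence 2 in replicate 3. Without that array, each of the 7 tested genes kept its call or lack of one in p52/RelB KD, and the IL6 difference was 0.02.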

How the data were processed

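The authors deposited log2 expression values from RMA, which corrects the background, quantile-normalizes arrays and summarizes probes; tool versions are not given in the sources used here. The table held 33297 transcript clusters, of which the platform annotation gives 1 symbol for 19460, several for 1754 and lists none for 12083; symbols were updated through GRCh38.p14 gene names for 19429 of them. The members and lists were chosen with earlier results of these data known. CSF2 had no cluster with that symbol alone, so the planned search for clusters of like pattern was not run for it. Genes named were the 9 members, the partner chains IL27 and IL12B, IL23A of IL-23, and the siRNA targets. Also named were list genes called in either experiment (at most 10 per list) and the 3 most alike clusters.

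Each KD was compared with its own control by limma 3.58.1 (lmFit and eBayes, R 4.3.3) over clusters with 1 symbol and values of at least 6 on more than 6 of the 12 arrays, both sequences pooled and the replicate as block. The methods state a plain test where limma was used here, and an adjustment for covariates that they do not name. Replicates still differed in the deposited values, for 1.18% of clusters in experiment 1 and 9.07% in experiment 2. The methods describe a replicate as a set of samples, and the KD mean and the control mean of a replicate deviated together, with r over clusters of 0.448, 0.195 and 0.251 for replicates 1, 2 and 3 of experiment 1 and of 0.574, 0.268 and 0.377 for those of experiment 2, so replicates were taken as paired. The difference between KD effects came from a single fit of 24 arrays in which each replicate of either experiment was a block, and sequence 1 was set against sequence 2 within an arm with 3 arrays each. Calls needed a Benjamini-Hochberg adjusted p below 0.05 and a difference of at least 10%. The number of arrays limits the precision, and the median SE of a KD effect was 0.0476 and 0.0536 on the log2 scale. Closest arrays correlated at 0.998 and shared 0.021% of values, so each array was counted once. Fits were tested on simulated data. Alternatives were the block, the filter, the test, normalization, siRNA sequences, scan batch and left-out replicates. Leaving out single arrays and testing clusters with several symbols were added after seeing the data. So was the count of clusters with KD sequences on opposite sides of all controls. Promoter sequences came from RefSeq (GRCh38.p14) and siRNA sequences from the study's supplement. Python 3.11.15, pandas 2.3.3 and matplotlib 3.10.9 were used for tables and plots.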

Additional observations from a re-analysis of the deposited data

Results flagged for a closer look

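CSF1 in control 1 had 1 array far from the others. The array of sequence 2 in replicate 1 lay at 10.88, where the nearest of the other arrays lay at 11.05 and the farthest at 11.14. The gap took up 0.651 of the group's range, above Dixon's limit of 0.625 for 6 arrays. In all, 32 groups of 6 arrays were examined in this way and 1 was flagged, where chance flags about 5% of groups.

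The effects of the 2 KDs differed by limma for 3 genes. The p52/RelB KD effect minus the p50/RelA KD effect was 0.27 for EBI3, 0.34 for IL6 and 0.54 for CSF1. For EBI3 and IL6 this call was lost without any 1 replicate and without the block, and for CSF1 it was kept in each. CSF1 was called higher in p52/RelB KD and had a negative difference in p50/RelA KD that did not pass. EBI3 was called lower in both, but its p52/RelB KD call (limma adjusted p = 0.0356) was lost without replicate 1 or replicate 2.

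The siRNA sequences of the p52/RelB KD lay on opposite sides of all control 2 arrays for IL13, at 0.32 with sequence 1 and -0.21 with sequence 2 relative to the control mean. The test of that contrast did not pass after adjustment (adjusted p = 0.38).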

How the results depend on the processing

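Clusters called in p50/RelA KD numbered 157 as reported, 59 with no replicate block, 103 with no filter on low values, 30 by the methods' t-test on deposited values, 276 by that test on replicate-adjusted values, 260 with eBayes trend and robust settings, 37 with sequence 1 alone, 3 with sequence 2 alone and 45 with sequences averaged. Leaving out a replicate or array gave 18 to 194. In p52/RelB KD they numbered 1559, and 880 with no replicate block, 725 by the methods' t-test on deposited values, 5 with sequence 2 alone, 632 with sequences averaged, and 444 to 2311 with a replicate or array left out. For the difference between KD effects they numbered 637, and 250 with no replicate block, 967 without the 2 arrays of lowest correlation with their arm (control 1 sequence 2 of replicate 2 and p52/RelB KD sequence 2 of replicate 3), and 168 to 293 without a replicate. Testing clusters with several symbols as well called 182 and 1764 clusters, and changed no call of the tested genes.

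Of the genes described, 3 were called lower in p50/RelA KD, and 1 with no block or by the methods' t-test on deposited values. With sequence 1 alone 2 were called lower, with sequence 2 alone 0, and with sequences averaged 2. With a replicate or array left out it was 1 to 4. The 1 called higher was called in 0 cases with no block, no filter, a filter at 7 (which left it untested), the methods' t-test on deposited values, either sequence alone or sequences averaged, and in 0 to 1 with a replicate or array left out. In p52/RelB KD 2 were called lower, and 0 with no block, the methods' t-test on deposited values, or either sequence alone, 1 with sequences averaged, 1 with scan batch as block, and 0 to 2 with a replicate or array left out. The 2 called higher became 3 with sequence 1 alone, where IL13 was added. They became 1 with a filter at 7, 0 with sequence 2 alone and 1 to 2 with a replicate or array left out. The difference between KD effects called 3 higher, 1 with no block and 1 without any replicate. The arms with 1 sequence hold 3 arrays. For other losses the cause was not tested.

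Signs turned only for values that did not pass. In p52/RelB KD, IL6 was 0.0803 with sequence 1 alone and -0.0647 to 0.0299 with a replicate or array left out, and IL13 was -0.26 with sequence 2 alone and -0.0425 to 0.122 with a replicate or array left out. With a replicate left out, IL23A in p52/RelB KD ranged over -0.121 to 0.0314, IL27 in p50/RelA KD over -0.131 to 0.0028, and the difference between KD effects for IL7 over -0.0327 to 0.138. Sequence 1 minus 2 in p50/RelA KD ranged over -0.0662 to 0.0342 for IL12A, -0.0314 to 0.0186 for IL13, -0.0454 to 0.0033 for EBI3 and -0.0635 to 0.0281 for CSF1, and in p52/RelB KD over -0.0260 to 0.182 for IL6.

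The number of arrays, the values of IL7, IL10 and IL15 near 6, and the small size of the fall in RELB mRNA limit what these data show. The EBI3 call in p50/RelA KD was kept in all alternatives run but sequence 2 alone (adjusted p = 0.236).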
